A study of Arabidopsis thaliana with 9 samples.

Results

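The genes described here are 10 Arabidopsis thaliana loci that regulate the root cap or act in gravity sensing by the root. They were taken by locus identifier from the table of 21430 loci, and all 10 had a probe set: the NAC transcription factor genes FEZ (AT1G26870), SMB (AT1G79580), BRN1 (AT1G33280) and BRN2 (AT4G10350), the polygalacturonase gene RCPG (AT1G65570), the zinc finger genes WIP2 (AT3G57670) and WIP4 (AT3G20880), the J-domain protein genes ARL2 (AT1G59980) and ARG1 (AT1G68370), and the phosphoglucomutase gene PGM (AT5G51820). Every plant was a plt1 plt2 double mutant with the complementing, dexamethasone-inducible PLT2::PLT2-GR construct, driven by the PLT2 promoter, and with WOX5::erGFP. At 5 days the seedlings went onto medium with 10 µM dexamethasone in DMSO for 1 h or 4 h, or onto DMSO medium for 1 h (mock), and GFP-positive protoplasts from cut root tips were sorted as quiescent centre (QC) cells. Each group had 3 arrays, labelled as biological replicates, whose separate plants or cultures are not described, so p-values measure the spread among these arrays. There was no 4 h mock, so time on the new plate and release of PLT2-GR cannot be told apart at 4 h. There was also no dexamethasone group without the construct, so dexamethasone itself and release of PLT2-GR cannot be told apart at 1 h or 4 h.

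The root cap is the layered tissue over the root tip, made by stem cells that touch the QC. FEZ drives the divisions of these stem cells that add new cap layers, SMB acts in their daughters to end such divisions and to promote maturation, and BRN1 and BRN2 act with SMB in the maturation and release of old cap cells. In the central cap, the columella, starch-filled plastids fall with gravity, and proteins such as ARG1 and ARL2 act between that movement and the redirection of auxin flow. PLT2 is an AP2-type transcription factor of the root stem cell niche, and the steroid receptor part (GR) of the fusion holds it outside the nucleus until dexamethasone is given.

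Values are log2 expression from robust multi-array averaging (RMA), so a difference of 1 is a doubling; fold changes are differences of group means with their standard error, and limma called a change where the adjusted p was under 0.05. Apart from list sums and shares of them, levels of different genes are not set against each other, since probe sets differ in response. Those sums weigh bright probe sets most. Arrays within a group correlated at 0.9902 to 0.9972 across loci. Poly-A control probe sets averaged 8.12 on 4 h replicate 1 and between 5.78 and 6.23 elsewhere, so calls and counts at 4 h are also given without it. Against the quartiles of the arrays (lower 3.55 to 3.63, upper 7.68 to 7.73), RCPG, BRN1 and ARG1 lay above the upper on every array, and the other 7 genes, SMB, BRN2 and FEZ among them, lay between the quartiles. Of 9 measured QC markers, SCR, PLT2 and PLT3 lay above the upper quartile on every array, AGL42 lay below the lower, and the other 5 lay between. PLT1 and PLT2 are mutated in every plant, so their values do not show the wild-type genes. The PLT2 signal may include the transcript of the PLT2-GR construct, which was not tested. These positions are probe set brightness, which also depends on the probes, and do not give the makeup of the sorted cells. In sorted bulk samples, fewer cells of a type and less RNA per cell cannot be told apart, and how many sorted cells were cap cells was not counted. WOX5, whose promoter drives the GFP, is not among the loci with values, so it was not measured here.

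FEZ was the member that rose. On mock replicates 1, 2 and 3 its log2 level was 5.59, 4.86 and 4.99, at 1 h it was 5.87, 6.07 and 6.59, and at 4 h it was 6.21, 5.75 and 6.40. Every induced array lay above every mock array, and the 1 h and 4 h arrays overlapped. The group means were 5.15 ± 0.39 in mock, 6.18 ± 0.37 at 1 h and 6.12 ± 0.33 at 4 h (SD, n = 3 each). The 4 h level was 1.96-fold that of mock, with a 95% interval of 1.37 to 2.82, and this rise of 0.97 ± 0.24 on the log2 scale passed (adjusted p = 0.0279). At 1 h the difference was already 1.03 ± 0.24 (2.04-fold, interval 1.42 to 2.93), but it did not pass over all loci (unadjusted p = 0.0013, adjusted p = 0.29). Between 1 h and 4 h the difference was -0.05 ± 0.24, with an interval of -0.58 to 0.47. The call at 4 h was lost without 4 h replicate 1 (0.93, adjusted p = 0.0836), without mock replicate 2 (0.83, adjusted p = 0.117) and without mock replicate 3 (0.89, adjusted p = 0.0989). Mock replicate 1, the highest mock array, lay 0.16 below the closest induced array.

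**Figure D1:**
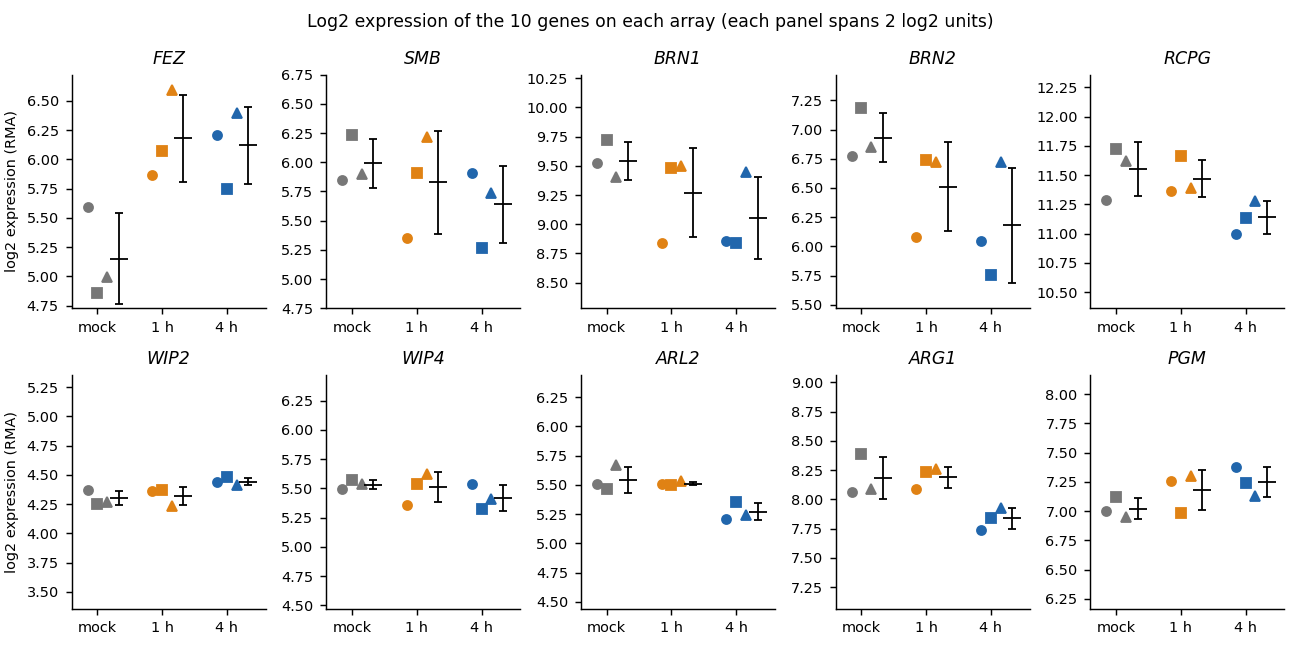
Log2 expression (y axis, RMA) of each of the 10 genes by group (x axis), with circle, square and triangle for replicates 1, 2 and 3 and a black bar for the mean ± SD (n = 3). Each panel spans the same 2 log2 units. FEZ is the gene with a called change, from a mean of 5.15 in mock to 6.12 at 4 h, while its 1 h mean of 6.18 was not called.

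The NAC genes of cap maturation did not follow FEZ. SMB had log2 levels of 5.85, 6.23 and 5.90 in mock, 5.35, 5.91 and 6.22 at 1 h, and 5.91, 5.27 and 5.74 at 4 h. These 3 groups overlapped, and the difference from mock was -0.17 ± 0.22 at 1 h (interval -0.66 to 0.33) and -0.35 ± 0.22 at 4 h (interval -0.85 to 0.14, adjusted p = 0.351). BRN1 had 9.52, 9.72 and 9.40 in mock, 8.84, 9.48 and 9.50 at 1 h, and 8.86, 8.84 and 9.45 at 4 h. Its 4 h replicate 3 reached into the mock range while the other 4 h arrays lay below it, with a difference at 4 h of -0.49 ± 0.20 (adjusted p = 0.15).

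BRN2 showed the lowest value against mock among the 10 genes. Its log2 levels were 6.77, 7.18 and 6.85 in mock, 6.08, 6.74 and 6.72 at 1 h, and 6.05, 5.76 and 6.72 at 4 h. All induced arrays lay below all mock arrays, the closest by 0.04. The difference was -0.42 ± 0.24 at 1 h (adjusted p = 0.998) and -0.76 ± 0.24 at 4 h (interval -1.30 to -0.22, adjusted p = 0.0731). Its 4 h value depended on single arrays. It passed without 4 h replicate 3 (-1.03, adjusted p = 0.00744), while it was -0.55 without 4 h replicate 2 (adjusted p = 0.215), -0.63 without mock replicate 2 (adjusted p = 0.233) and -0.69 without 4 h replicate 1 (adjusted p = 0.188). BRN1 likewise passed without 4 h replicate 3 (-0.69, adjusted p = 0.0271), and was -0.39 without 4 h replicate 2 (adjusted p = 0.353), -0.40 without 4 h replicate 1 (adjusted p = 0.35) and -0.41 without mock replicate 2 (adjusted p = 0.377).

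RCPG encodes a pectin-cutting enzyme of the cap that acts in the release of its outer cells. It had 11.29, 11.72 and 11.62 in mock, 11.36, 11.66 and 11.39 at 1 h, and 11.00, 11.13 and 11.28 at 4 h. The 1 h arrays lay within the mock range and the 4 h arrays below both other groups, the closest by 0.01 from mock. The 4 h difference from mock was -0.41 ± 0.13 (interval -0.70 to -0.12, adjusted p = 0.072). It passed without 4 h replicate 3 (-0.48, adjusted p = 0.0402) and without mock replicate 1 (-0.53, adjusted p = 0.0405). It was -0.32 without mock replicate 2 (adjusted p = 0.234), -0.37 without mock replicate 3 (adjusted p = 0.194) and -0.34 without 4 h replicate 1 (adjusted p = 0.195).

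FEZ, SMB, BRN1 and BRN2 varied more within groups than most loci. Their pooled SD within groups was 0.36, 0.34, 0.31 and 0.38, against a median of 0.13 over all loci, and each stood above at least 95.7% of loci. The other 6 genes had pooled SDs of 0.06 to 0.18. This spread sets how small a change could pass for the NAC genes.

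Of the zinc finger genes needed in the embryo for the distal root stem cells, neither was called. WIP2 levels spanned 4.25 to 4.37 on mock arrays, 4.23 to 4.37 on the 1 h arrays and 4.41 to 4.48 on the 4 h arrays, below the 40th percentile of the arrays throughout (4.66 to 4.73). Its 4 h arrays were all above the other arrays, and the difference from mock was 0.15 ± 0.08 (adjusted p = 0.268). WIP4 spanned 5.49 to 5.57 on mock arrays, 5.36 to 5.62 on the 1 h arrays and 5.32 to 5.54 on the 4 h arrays, with overlapping groups. Its intervals, -0.23 to 0.18 at 1 h and -0.32 to 0.10 at 4 h, do not reach a change of the size of FEZ.

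ARL2 and ARG1 are related J-domain proteins, needed in the columella for a full gravity response. ARL2 had 5.51, 5.46 and 5.67 in mock, 5.51, 5.50 and 5.53 at 1 h, and 5.21, 5.35 and 5.24 at 4 h. ARG1 had 8.06, 8.39 and 8.09 in mock, 8.09, 8.23 and 8.26 at 1 h, and 7.74, 7.84 and 7.93 at 4 h. In both genes the 1 h arrays overlapped mock, and every 4 h array lay below every other array. The 1 h differences were -0.03 ± 0.08 and 0.01 ± 0.11. At 4 h against mock the difference was -0.28 ± 0.08 for ARL2 (adjusted p = 0.0596) and -0.34 ± 0.11 for ARG1 (adjusted p = 0.064), and at 4 h against 1 h it was -0.25 ± 0.08 (adjusted p = 0.133) and -0.35 ± 0.11 (adjusted p = 0.0985). Without 4 h replicate 3, ARG1 passed against mock (-0.39, adjusted p = 0.0421) and against 1 h (-0.40, adjusted p = 0.0492). Against mock it was -0.24 without mock replicate 2 (adjusted p = 0.203) and -0.29 without 4 h replicate 1 (adjusted p = 0.167), and ARL2 was -0.21 without mock replicate 3 (adjusted p = 0.192) and -0.25 without 4 h replicate 1 (adjusted p = 0.138).

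PGM, the plastid enzyme that makes glucose 1-phosphate for starch, is known in this context because mutants without it have starch-free columella plastids and a weak gravity response. It had 7.00, 7.12 and 6.95 in mock, 7.26, 6.98 and 7.30 at 1 h, and 7.38, 7.24 and 7.13 at 4 h. The 4 h arrays all lay above mock, the closest by 0.01, with a difference of 0.23 ± 0.11 (interval -0.01 to 0.47, adjusted p = 0.203). Its relative PGM2 (AT1G70730), a cytosolic phosphoglucomutase, fell by 0.42 ± 0.11 at 4 h (adjusted p = 0.0369), and PGM3 (AT1G23190), also cytosolic, stood at -0.23 ± 0.11 (adjusted p = 0.183). The PGM2 call was lost without 4 h replicates 1 or 2, any 1 of the mock arrays, or 1 h replicate 2 (adjusted p = 0.06 to 0.141). The probes behind each gene are not listed in the sources used, so signal shared between relatives, BRN1 with BRN2 included, was not tested. Of the other relatives, ARL1 (AT1G24120) stood at -0.07 ± 0.09 at 4 h and the WIP gene AT1G13290 at 0.10 ± 0.11.

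**Figure D2:**
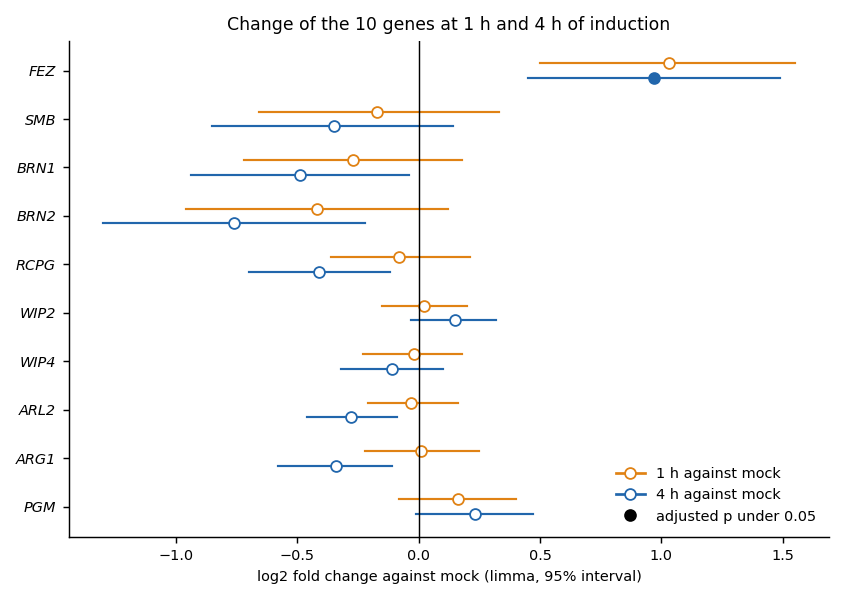
Log2 fold change against mock (x axis) for each of the 10 genes (y axis) at 1 h and at 4 h, with 95% intervals from limma; both comparisons use the same mock arrays. Filled points passed an adjusted p under 0.05, which FEZ did at 4 h (0.97); BRN2 stood lowest at 4 h (-0.76).

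Counted together, limma called 0 of the 10 genes at 1 h, where 0.187% of all loci were called, and 1 had an unadjusted p under 0.05 (4.34% of loci). At 1 h, FEZ was the 1 gene with all arrays above mock (5.73% of all loci) and BRN2 the 1 with all arrays below it (5.4%). At 4 h, 1 of 10 rose (5.53% of loci) and 0 fell (5.23% of loci), while 6 had an unadjusted p under 0.05, as had 26.8% of all loci, FEZ upward and BRN1, BRN2, RCPG, ARL2 and ARG1 downward. By array order, 3 of 10 lay wholly above mock at 4 h (FEZ, WIP2 and PGM; 14.3% of loci) and 4 wholly below it (BRN2, RCPG, ARL2 and ARG1; 13.4%). The median log2 fold change of the 10 at 4 h was -0.31, against 0.01 over all loci, and at 1 h it was -0.03 against -0.01. Between 1 h and 4 h limma called 0 of 10 (1.85% of loci), 3 had an unadjusted p under 0.05 (20.8% of loci), 1 lay wholly above (WIP2; 11.7% of loci) and 3 wholly below (RCPG, ARL2 and ARG1; 10.1%). The number called at 4 h was 0 without 4 h replicate 1, mock replicate 2 or mock replicate 3, 2 without mock replicate 1, and 5 without 4 h replicate 3, of which FEZ was up and BRN1, BRN2, RCPG and ARG1 down. In the same order of arrays left out, 1209, 688, 896, 1223 and 4153 of all 21430 loci were called. The main fit called 2305 loci. Without 4 h replicate 1 the 9 genes other than FEZ kept their sign at 4 h, with adjusted p = 0.138 to 0.442. With the replicate number as a block, 2 of the 10 were called, FEZ and RCPG (adjusted p = 0.0389), and 2340 of all loci.

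Other genes of these pathways were followed through 4 lists. The lists were chosen with earlier results of these data known, so their counts are a description with no test. Genes of root cap cell death and separation were the list with the most calls at 4 h. Among its 7 measured members none rose, 5 fell and the other 2 were not called, where 5.53% of all loci rose and 5.23% fell. The median of the 7 was -0.69 (all loci 0.01). BFN1 (AT1G11190), a nuclease of dying cells, had 8.32, 8.36 and 8.20 in mock, 7.63, 8.10 and 7.82 at 1 h, and 7.46, 7.87 and 7.54 at 4 h. All induced arrays lay below mock, and it fell by 0.67 ± 0.14 at 4 h (adjusted p = 0.0151). The metacaspase gene MC9 (AT5G04200) had 8.99 to 9.05 in mock, 8.42, 8.90 and 8.56 at 1 h, and 7.90, 8.56 and 8.48 at 4 h. It too lay below mock on all induced arrays and fell by 0.70 ± 0.17 at 4 h (adjusted p = 0.0285). AT4G04460 fell by 0.78 ± 0.14 (adjusted p = 0.0096), AT4G18425 by 1.09 ± 0.24 (adjusted p = 0.0188) and the ribonuclease gene RNS3 (AT1G26820) by 0.69 ± 0.19 (adjusted p = 0.0476). BFN1, MC9 and RNS3 are known from dying xylem cells as well as from the root cap.

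The remaining genes of that list, which did not pass, were the root cap cellulase gene CEL5 (AT1G22880) at 0.31 ± 0.28 and the carboxypeptidase gene SCPL48 (AT3G45010) at 0.13 ± 0.12. Without 4 h replicate 1, AT4G04460 was the 1 of 7 still called, where 1209 of all 21430 loci were called. The call of BFN1 was also lost without mock replicate 2, that of AT4G18425 without mock replicates 1 or 3, and that of MC9 without any 1 mock array. RNS3 lost its call without any 1 array other than 4 h replicate 3 and 1 h replicate 1, and is named after its value was seen. At 1 h limma called 0 of the 7, with a median of -0.30 and 2 members at an unadjusted p under 0.05 (4.34% of loci).

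Of 13 measured starch synthesis genes, 1 was called at 4 h and rose (5.53% of all loci rose), GBSS1 (AT1G32900), the granule-bound starch synthase that makes amylose. Its log2 levels were 6.83, 6.76 and 6.85 in mock, 7.57, 7.41 and 7.71 at 1 h, and 8.15, 7.58 and 7.58 at 4 h. Every induced array lay at least 0.56 above mock. GBSS1 rose by 0.96 ± 0.15 at 4 h (adjusted p = 0.0056) and stood at 0.75 ± 0.15 at 1 h (adjusted p = 0.146). The call at 4 h held under all 17 alternatives, with values of 0.77 to 1.05. The median of the 13 genes was 0.15. The starch synthase genes SS3 (AT1G11720) and SS4 (AT4G18240) stood at 0.35 ± 0.15 and 0.15 ± 0.08.

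Gravity signalling held 1 call at 4 h, downward, among 12 measured genes (5.23% of all loci fell), with a median of -0.13. AT3G24750, to which the gene table gives no symbol, had 6.27, 6.33 and 6.08 in mock, 5.71, 6.50 and 6.20 at 1 h, and 4.72, 4.98 and 5.96 at 4 h. It fell by 1.01 ± 0.29 (adjusted p = 0.0497), a call that was lost without any 1 array other than 1 h replicate 1 and 4 h replicate 3 (adjusted p = 0.0597 to 0.159). The auxin efflux carriers of the columella were not called. PIN3 (AT1G70940) stood at 0.41 ± 0.15 at 1 h and -0.16 ± 0.15 at 4 h, and between these times at -0.58 ± 0.15 (adjusted p = 0.0736). PIN7 (AT1G23080) stood at -0.32 ± 0.14 at 4 h (adjusted p = 0.177).

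The 6 measured genes of root cap fate and stem cells held no call at 4 h and had a median of -0.02; 2 had an unadjusted p under 0.05 (26.8% of loci). The auxin response factor gene ARF16 (AT4G30080), which limits columella stem cells, stood at -0.30 ± 0.09 (adjusted p = 0.0574), and the receptor kinase gene ACR4 (AT3G59420) of the same cells at 0.38 ± 0.13 (adjusted p = 0.0842). Over the 4 lists together, 7 of 38 measured genes were called at 4 h, 1 up and 6 down, against 5.53% and 5.23% of all loci, with a median of -0.02. The cell death list gave 5 of the 6 that fell. Without 4 h replicate 1 the count was 2, GBSS1 and AT4G04460. It was 4 without mock replicate 1, 3 without mock replicates 2 or 3, and 12 without 4 h replicate 3. Of all 21430 loci, 2305 were called in the main fit and 1209 without 4 h replicate 1. Without mock replicates 1, 2 and 3 this number was 1223, 688 and 896, and without 4 h replicate 3 it was 4153. At 1 h limma called 0 of 38, and 6 had an unadjusted p under 0.05, where 4.34% of all loci did. Between 1 h and 4 h it again called 0, and 6 had an unadjusted p under 0.05, where 20.8% of all loci did.

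**Figure D3:**
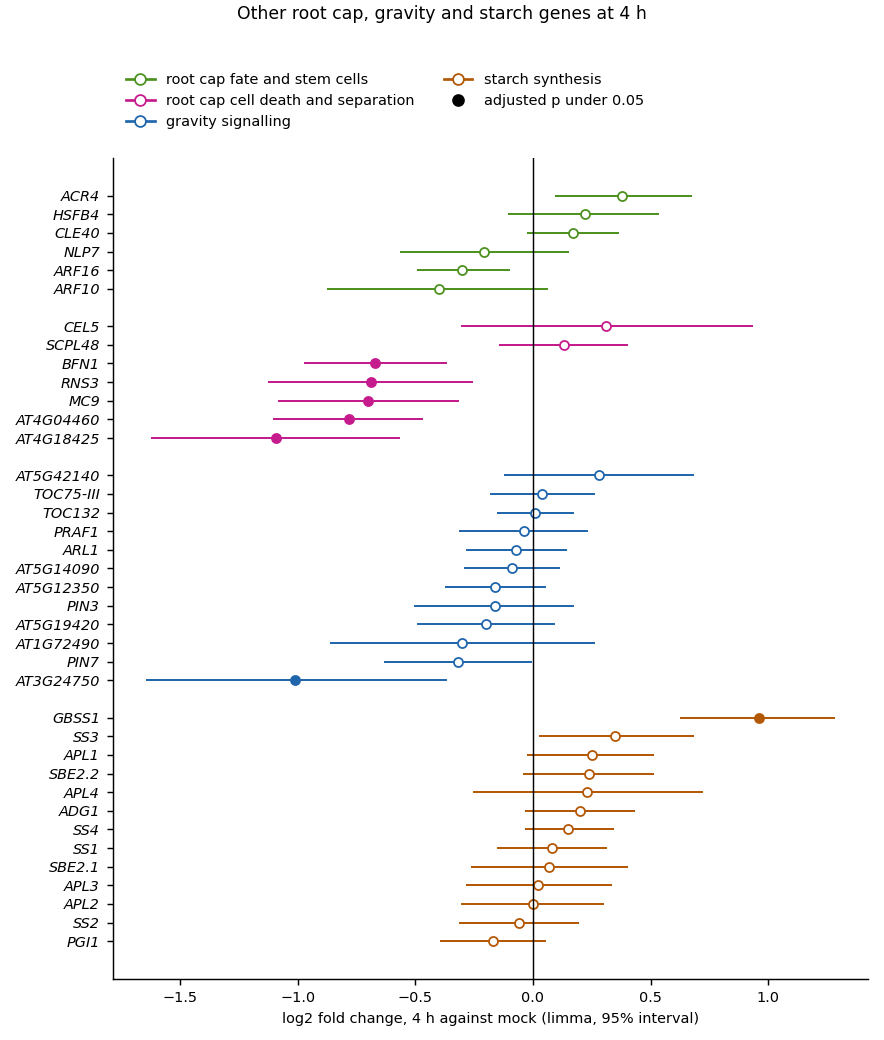
Log2 fold change at 4 h against mock (x axis) with 95% intervals from limma for the 38 measured genes of the 4 other lists (y axis), filled where the adjusted p was under 0.05. The filled points to the left are the 5 cell death genes, from -1.09 to -0.67, and AT3G24750, and GBSS1 stands to the right at 0.96.

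Some markers of other root cell types also fell at 4 h. Over all loci, 5.23% fell at 4 h and 13.4% lay wholly below mock. Of 4 endodermis markers, 1 fell (ESB1, -0.52 ± 0.14) and all 4 lay wholly below mock. Their level summed on the linear scale ranged over 170 to 226 on mock arrays, 183 to 203 on 1 h arrays and 116 to 149 on 4 h arrays. Of 7 vascular markers 3 fell (TMO5, XCP1 and ACL5), with sums in the same order of 463 to 538, 444 to 511 and 393 to 427. Of 7 epidermis and root hair markers 2 fell (RHD6 and RHD2), with sums of 878 to 955, 801 to 932 and 663 to 870. Summed the same way, the 10 root cap and gravity genes gave 3961 to 5053, 3786 to 4715 and 3203 to 3911, and the cell death list 4759 to 5530, 4107 to 5369 and 3503 to 4645. RCPG made up 63% to 69.4% of the sum over the 10 genes and BRN1 12.1% to 18.5%, so that sum describes mainly these genes.

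Of 9 measured QC markers 2 rose at 4 h (5.53% of all loci rose), TEL1 by 0.61 ± 0.15 and BRAVO by 0.70 ± 0.19, and 0 fell. The sums over the 9 markers overlapped between groups (1723 to 1824, 1733 to 1965 and 1627 to 1886). PLT1 and PLT2, mutated in every plant, are among the 9. Without 4 h replicate 1, limma called 0 endodermis and 0 QC markers, 1 vascular marker (TMO5) and 1 epidermis marker (RHD6), and the calls of ACL5, BRAVO, ESB1 and RHD2 were each lost under 9 or 10 alternatives. Over all 21430 loci, 1209 were called without 4 h replicate 1, against 2305 in the main fit. No marker was listed at 0, since RMA values do not reach it. The part of these shifts in the values of the cap, cell death and gravity genes was not tested. The median change at 4 h was -0.58 for the endodermis, -0.12 for the vascular, -0.16 for the epidermis and 0.09 for the QC markers.

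**Figure D4:**
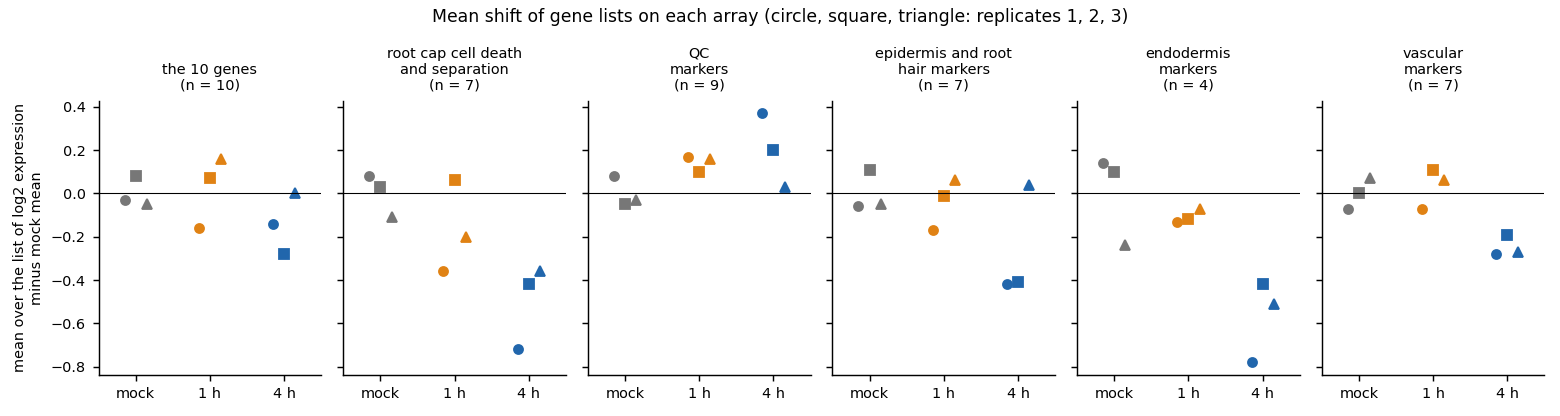
Mean over each gene list of log2 expression minus the gene's mock mean (y axis) on each array, by group (x axis), with circle, square and triangle for replicates 1, 2 and 3. At 4 h the cell death list lies at -0.72 to -0.36, endodermis markers at -0.78 to -0.42 and vascular markers at -0.28 to -0.19. Epidermis and root hair markers lie at -0.42 to 0.04, the 10 genes at -0.28 to 0.00 and QC markers at 0.03 to 0.37.

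The profile of FEZ was compared with that of every other locus by the root mean square difference over the 9 arrays, after centring each locus on its mock mean; the median over loci was 0.88. The nearest 5 were AT5G48130 (0.15), EXL3 (AT5G51550, 0.20), AT4G35720 (0.25), AT5G02070 (0.25) and LAX2 (AT2G21050, 0.26), an auxin influx carrier gene. AT5G48130, EXL3 and AT4G35720 shared with FEZ the highest mock value on replicate 1 and the highest 1 h value on replicate 3. AT5G02070 and LAX2 did not share both. All 9 arrays, the induced ones included, entered this measure, so differences near those of FEZ follow from the choice and are given as a description with no test. Their log2 differences from mock at 1 h and 4 h were 1.04 and 0.88 for AT5G48130, 1.12 and 1.07 for EXL3, 0.77 and 1.15 for AT4G35720, 0.98 and 0.85 for AT5G02070, and 0.99 and 1.04 for LAX2.

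**Figure D5:**
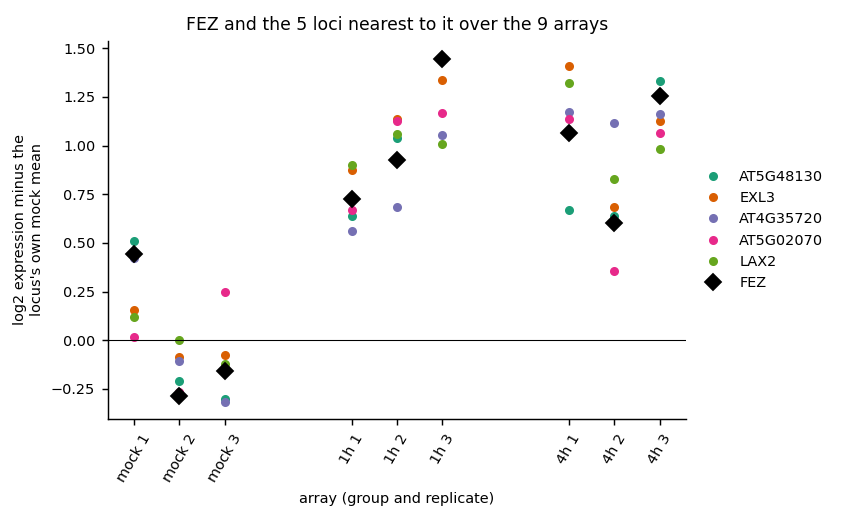
Log2 expression minus the locus's own mock mean (y axis) on the 9 arrays (x axis) for FEZ (black diamonds) and the 5 loci nearest to it. FEZ and the 5 loci stand above 0 on all 6 induced arrays, and on mock replicate 1 FEZ, AT5G48130 and AT4G35720 lie farthest above their mock means.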

How the data were processed

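The data are array measurements of sorted root cells in 3 groups of 3 samples. The table deposited by the authors holds 1 log2 value for each probe set and array. RMA and limma 3.24.15 are the tools in the submitters' processing notes. No array type, probe set definition or genome build was stated in the sources used. Of 21494 rows, 64 were controls and 21430 carried a locus name, and 21231 of these loci took their symbols from RefSeq genes of TAIR10.1.

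No transformation or filter was applied to these values. A limma 3.58.1 model (R 4.3.3, lmFit and eBayes, 6 residual and 4.47 prior degrees of freedom) was fitted to all 9 arrays, tested two-sided for 3 contrasts and adjusted by Benjamini-Hochberg over 21430 loci. All adjusted p-values come from this model or from its alternatives. The procedure was tested on simulated data with independent noise for each locus and array. That test does not cover shifts shared by the loci of an array. Precision is limited by the number of arrays (median standard error 0.108).

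The members and lists were chosen with earlier results of these data known. All 10 members are named; of each other list up to 4 called genes and up to 2 uncalled genes with the smallest p; and for each called member the 5 nearest loci. Exceptions are marked or are list counts of markers. Replicate numbers were checked for pairing: deviations from the group means correlated at -0.13 to 0.27 over 9 same-number pairs. Pairs of unlike number were not compared, so this check cannot exclude pairing by replicate number. The main model used no pairing, and the replicate block is given as an alternative. Alternatives were quantile normalization, median centring, leaving out loci below the 40th percentile, a fit to only the groups compared, trend and robust eBayes, the replicate block, array weights and leaving out each array.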

Additional observations from a re-analysis of the deposited data

How the results depend on the processing

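Of 507 values of the 10 genes under 17 alternatives, 480 kept direction and side of the threshold, 3 lost a call (FEZ at 4 h, given above), 10 gained a call and 14 changed sign, and no sign change involved a called value. FEZ stayed between 0.83 and 1.19 at 4 h and between 0.82 and 1.25 at 1 h. The count of the 10 genes called at 4 h was 2 with array weights, 2 with the replicate block and 3 without dim probe sets (of the 9 left in, FEZ, ARG1 and ARL2), and 0 to 5 without single arrays. Over all loci the count was 3100 with array weights and 2340 with the replicate block, against 2305 of 21430 in the main fit. Without dim probe sets 2683 of 12858 loci were called. At 4 h against 1 h the count of the 10 genes was 0 to 1 without single arrays. For the 38 other genes the count was 2 to 12 without single arrays at 4 h. At 1 h it was 1 with array weights, 1 with only the 2 groups compared and 0 to 1 without single arrays, and at 4 h against 1 h it was 4 with array weights and 0 to 5 without single arrays. The replicate block changed no other count by over 1.5 times.

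Signs changed without single arrays for small uncalled differences. At 1 h these ranged from -0.05 to 0.12 for ARG1, -0.07 to 0.03 for ARL2, -0.20 to 0.01 for RCPG, -0.36 to 0.07 for SMB, -0.0024 to 0.07 for WIP2 and -0.08 to 0.05 for WIP4. At 4 h against 1 h they ranged from -0.21 to 0.15 for FEZ, -0.03 to 0.13 for PGM and -0.43 to 0.01 for SMB.

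Over all loci, 40 were called at 1 h, 79 with array weights, 65 with only the 2 groups compared and 6 to 61 without single arrays. At 4 h 2305 were called, 1067 with only the 2 groups and 688 to 4153 without single arrays. At 4 h against 1 h 397 were called, 1699 with array weights, 4 with only the 2 groups and 3 to 2808 without single arrays. The cause was not tested. Signal over background was not measured, so differences at dim levels, WIP2 above all, are uncertain in size.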

Other observations

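FEZ, SMB, BRN1, BRN2 and WIP4 had their lowest 1 h value on replicate 1 and their lowest 4 h value on replicate 2, an order shared by 5 of the 10 genes and by 14.1% of all loci. FEZ, BRN1 and BRN2 also had their highest 4 h value on replicate 3, which holds for 7.3% of loci. The pattern was seen in the data first and was not tested.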
